A study of Mus musculus with 2 samples.

Results

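The barcodes described here carry platelet transcripts and none of 7 lymphocyte and neutrophil genes. A barcode is the tag shared by all transcripts captured in 1 droplet, and each captured transcript is counted as 1 unique molecular identifier (UMI). Members had at least 100 genes, under 10% of UMIs from mitochondrially encoded genes and under 20% from haemoglobin genes. They also had at least 5 of the 7 platelet genes Pf4, Ppbp, Gng11, Nrgn, Clec1b, Gp9 and Tsc22d1 and no UMI of Cd3d, Cd3e, Cd3g, Cd79a, Cd79b, Ms4a1 or Csf3r. The rule found 373 members among 36612 deposited barcodes, 86 of 16700 in the wt library and 287 of 19912 in the db/db library. Members were thus chosen by the measured values of these 14 genes, whose levels are given below as description only.

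Peripheral blood was profiled by droplet single-cell RNA sequencing (10x Genomics, 3' v2 chemistry) in 2 groups of male C57BLKs/J mice aged 21 weeks. The groups were wild-type (wt) and db/db, the latter of which carries a mutation of Lepr, the leptin receptor gene, and is an obese model of type 2 diabetes. Per the labels each group had 3 mice and gave 200 µl of retro-orbital blood in heparin tubes, and red cells were lysed in repeated rounds before capture. Each genotype gave 1 library, and no deposited file maps a barcode to a mouse, which leaves nothing to test across animals. Intervals are 95% intervals and cover counting error alone.

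Platelets are the anucleate cell fragments that megakaryocytes shed into blood. They stop bleeding by adhering through surface glycoproteins, releasing granules that hold chemokines and adhesive proteins, and changing shape through an actin and tubulin skeleton. Lacking a nucleus, they carry a limited stock of megakaryocyte RNA that is not renewed by transcription. In blood they also bind leukocytes, above all monocytes and neutrophils, so that a droplet can hold a leukocyte together with attached platelets.

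For 5 of the 7 platelet genes of the rule, the 150 bases before the annotated starts are shown. The rule asks for at least 5 of the 7 in a barcode, so their joint detection was set by selection. GATA and ETS family factors are known regulators of megakaryocyte genes. Pf4 and Ppbp encode the alpha-granule chemokines platelet factor 4 and pro-platelet basic protein. Clec1b encodes the podoplanin receptor CLEC-2, Gp9 a subunit of the von Willebrand factor receptor, and Nrgn the calmodulin-binding protein neurogranin. Sequences are from RefSeq on GRCm38.p6 and read 5' to 3' along the gene. Capitals mark matches of GATAA, which reads TTATC from the opposite strand, and of GGAAG, which from there reads CTTCC.
Ppbp (chr5:90768368-90768517, plus strand): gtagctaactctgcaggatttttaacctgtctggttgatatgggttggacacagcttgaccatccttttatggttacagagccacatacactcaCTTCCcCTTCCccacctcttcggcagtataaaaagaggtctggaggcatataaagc
Pf4 (chr5:90772285-90772434, plus strand): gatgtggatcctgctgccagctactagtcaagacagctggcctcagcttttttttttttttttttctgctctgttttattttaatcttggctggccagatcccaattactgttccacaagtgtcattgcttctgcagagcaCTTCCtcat
Clec1b (chr6:129397147-129397296, plus strand): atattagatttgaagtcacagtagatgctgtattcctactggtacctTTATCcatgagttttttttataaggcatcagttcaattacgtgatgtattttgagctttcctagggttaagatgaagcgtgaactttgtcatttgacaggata
Gp9 (chr6:87777920-87778069, plus strand): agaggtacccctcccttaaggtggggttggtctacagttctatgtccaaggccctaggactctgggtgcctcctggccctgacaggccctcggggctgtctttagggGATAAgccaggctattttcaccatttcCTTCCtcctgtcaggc
Nrgn (chr9:37552746-37552895, minus strand): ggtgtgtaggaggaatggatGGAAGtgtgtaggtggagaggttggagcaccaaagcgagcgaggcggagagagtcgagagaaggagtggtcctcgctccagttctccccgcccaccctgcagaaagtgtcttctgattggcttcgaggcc
GATAA or its reverse occurred in the Clec1b and Gp9 windows, each with 1 match, and in none of the other windows. GGAAG or its reverse occurred with 2 matches in the Ppbp window, 1 each in those of Pf4, Gp9 and Nrgn, and 0 in that of Clec1b. No match of one motif overlapped a match of the other. Of 32851 promoter windows of this length, 13.3% held the first motif, 47.7% the second and 5.47% both, as the Gp9 window did. Ppbp and Pf4 lie on the same strand of chromosome 5 with starts 3917 bases apart. A match of letters is a description and not a binding site.

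Platelet barcodes were shallow. Median depth was 639 UMIs in wt (quartiles 589 and 902) and 667 UMIs in db/db (562 and 897), against 2289 and 2130 UMIs over all barcodes that met the same quality limits. No deposited barcode had fewer than 500 UMIs, so shallower platelets are not analysed here. The members held a median of 324 genes in wt and 308 genes in db/db, and mitochondrially encoded UMIs took a median of 1.87% and 1.95%. Haemoglobin took a median of 3.71% of a member's UMIs in wt and 4.59% in db/db. The deposited libraries summed to 50540198 UMIs in wt and 70039773 UMIs in db/db, and shared 91 barcode sequences, of which 1 was a wt member and 0 were db/db members. The members summed to 93294 UMIs in wt and 319786 UMIs in db/db.

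A small set of deep barcodes carried monocyte or natural killer (NK) genes, which the rule does not test. At least 3 of 9 monocyte or 3 of 7 NK markers were present in 4 of 86 wt members (4.65%) and 26 of 287 db/db members (9.06%), a ratio of 1.95 with an interval of 0.676 to 7.68. All 4 wt barcodes and 25 of the 26 db/db barcodes had the monocyte markers, and 3 db/db barcodes had the NK markers. With medians of 6274.5 and 5019.5 UMIs, these barcodes held 28.1% of the members' UMIs in wt and 39.5% in db/db. Their summed monocyte markers reached 16827 CPM (UMIs per 1000000 UMIs of the sum) in the wt and 22392 CPM in the db/db library. The remaining 82 wt and 261 db/db members summed to 67086 and 193534 UMIs. Results are given for these remaining members, called marker-free below, with the values over all members where a list's direction or its calls differ. Leaving the marked barcodes out was an alternative chosen after the data were seen.

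**Figure D1:**
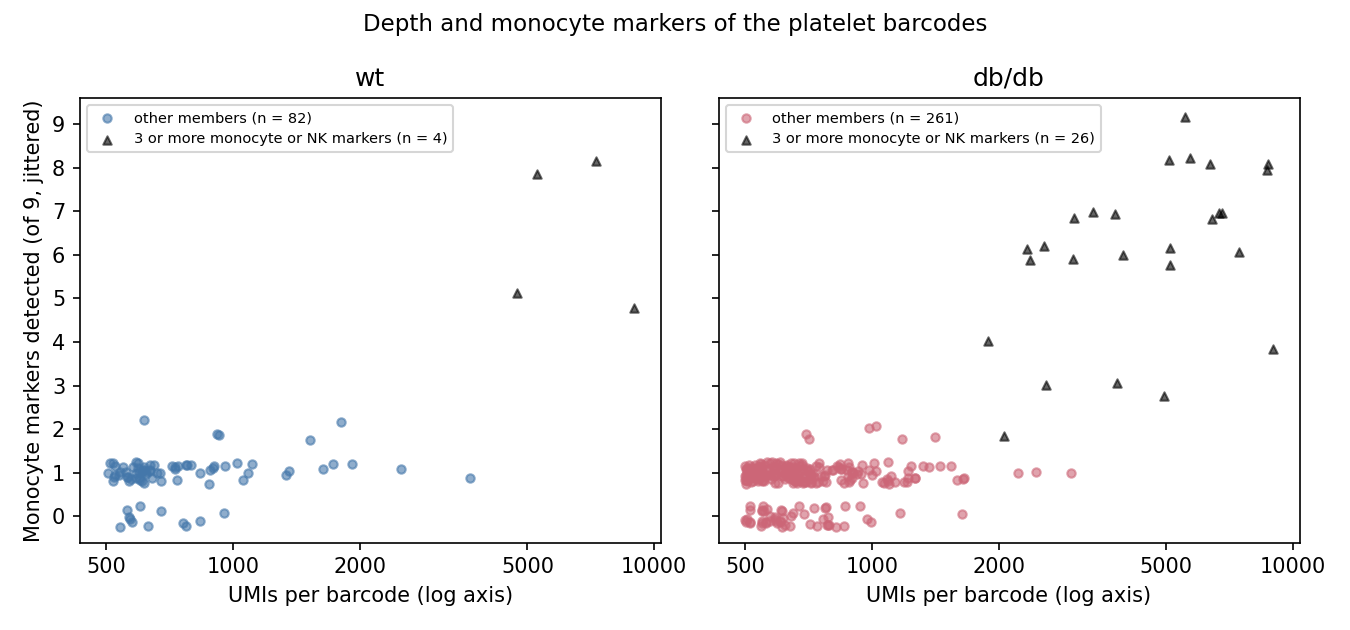
UMIs per barcode (log axis) against the number of 9 monocyte markers detected (points jittered vertically) for each platelet barcode of the wt library (left) and the db/db library (right), with triangles for barcodes with at least 3 monocyte or 3 NK markers. The triangles, 4 in wt and 26 in db/db, hold the deepest barcodes, while most other members lie under 1500 UMIs with at most 2 monocyte markers.

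In the marker-free members the defining genes of NK cells, T cells, endothelium and progenitors were at or near 0, while B cell, neutrophil, basophil and erythroid lists kept some UMIs. Part of this was set by selection. The rule put Cd3d, Cd3e, Cd3g, Cd79a, Cd79b, Ms4a1 and Csf3r at 0, and marker-free members had fewer than 3 NK and fewer than 3 monocyte markers. All 7 NK markers were at 0 in both libraries, and 1 of 10 T cell markers was detected, with 3 UMIs in wt and 5 UMIs in db/db. Of 9 monocyte markers 5 were detected in wt and 4 in db/db, and Ly6c2, Adgre4 and Fn1 were at 0 in both libraries. The summed monocyte list of 221 wt and 589 db/db UMIs was mostly Lyz2, with 209 and 582 UMIs. B cell markers summed to 78 UMIs in wt (1163 CPM) and 98 UMIs in db/db (506 CPM), and at least 3 of the 9 were present in 5 wt and 4 db/db barcodes. Of 9 neutrophil markers 4 were detected in wt with 19 UMIs and 5 in db/db with 63 UMIs, mostly Clec4d with 12 and 44 UMIs, while Csf3r, Wfdc21 and Il1r2 were at 0 in both. Of 6 basophil and mast cell markers 1 was detected in wt with 20 UMIs and 3 in db/db with 47 UMIs. Endothelial markers summed to 2 and 0 UMIs, and progenitor markers to 8 and 8 UMIs. The 9 erythroid markers were all detected and summed to 43228 CPM in the wt sum against 53970 CPM in the db/db sum.

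Platelet barcodes took a larger share of the db/db library. They were 86 of 3645 wt barcodes that met the quality limits (2.36%, exact Clopper-Pearson interval 1.89 to 2.91) and 287 of 3936 db/db barcodes (7.29%, 6.50 to 8.15), a ratio of 3.09 (interval 2.42 to 3.98). As a share of all deposited barcodes the values were 0.515% and 1.44%, a ratio of 2.80 (interval 2.19 to 3.60). Without the barcodes with monocyte or NK markers the ratio was 2.95 (interval 2.29 to 3.83). With mitochondrially encoded UMIs limited to 5%, which left 1975 wt and 3198 db/db barcodes as the total, it was 2.08 (interval 1.62 to 2.69), and with haemoglobin limited to 5% it was 2.49 (interval 1.85 to 3.39). Requiring 800 UMIs, which left 27 and 91 members, gave 3.14 (interval 2.02 to 5.02). Each of these ratios lay above 1, and with 1 library per genotype a difference between animals and a difference between captures cannot be told apart.

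**Figure D2:**
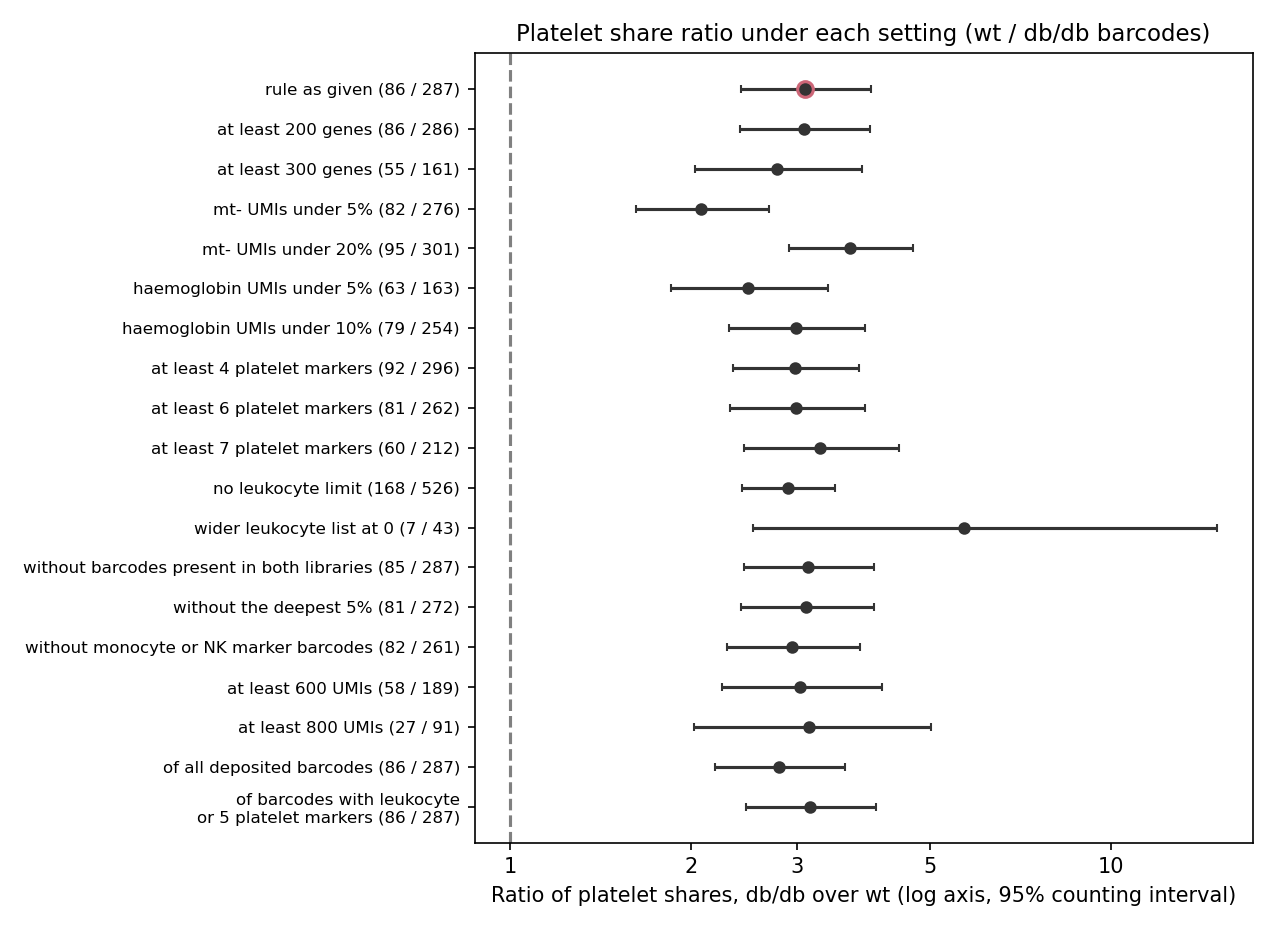
Ratio of the platelet share in db/db over wt (log axis) with its 95% counting interval under each way of choosing members or the total, with the number of wt and db/db members in brackets and the rule as given ringed. The ratios run from 2.08 to 5.69, and no interval reaches the dashed line at 1.

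Platelets bearing leukocyte genes were a similar part of the platelet-positive barcodes of each library. Of barcodes with at least 5 platelet genes, 82 of 168 in wt (48.8%) and 239 of 526 in db/db (45.4%) also carried at least 1 UMI of the 7 leukocyte genes of the rule. The ratio was 0.931 with an interval of 0.722 to 1.21, which holds values on either side of 1. The share of all quality barcodes with at least 5 platelet genes, whatever their leukocyte genes, was 4.61% of the wt and 13.4% of the db/db library, 2.90 times as high (interval 2.43 to 3.47).

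Most members carried all 7 platelet genes of the rule, 60 of 86 in wt and 212 of 287 in db/db, and another 21 and 50 carried 6. Just inside the threshold, with 5 genes, were 5 wt barcodes of median 615 UMIs and 25 db/db barcodes of median 3001 UMIs, of which 1 and 18 had monocyte or NK markers. Just outside it, with 4 genes, were 6 wt barcodes of median 2593.5 UMIs and 9 db/db barcodes of median 1553 UMIs, of which 4 and 4 had those markers. The db/db members at the threshold were thus mostly deep barcodes with leukocyte genes, while members with 6 genes had medians of 603 UMIs in wt and 591.5 UMIs in db/db.

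At equal depth the members differed from the other barcodes of their library. Each barcode was thinned to 500 UMIs by random draws, and other barcodes were sorted into classes by leukocyte markers or haemoglobin. Those classes were also limited to at most 1 of the 7 platelet genes of the rule. Itga2b, the alpha subunit of the fibrinogen receptor, was then detected in 72.0% of wt and 73.9% of db/db marker-free barcodes, against 0.0860% and 0.104% of B cell barcodes and 0.116% and 0.204% of barcodes dominated by haemoglobin. Its partner Itgb3 was detected in 63.4% of wt and 53.3% of db/db barcodes, against 0.688% and 0.313% of B cell barcodes. Detection without thinning was 76.8% and 66.7% of marker-free members for Itgb3, and 84.1% and 83.5% for Itga2b. Both integrin genes stood far above the shares given for those classes. The limit kept barcodes with more than 1 of the rule's platelet genes out of the classes, and its part in the contrast was not tested.

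Other genes outside the rule gave the same contrast, against classes with the same limit on platelet genes. Alox12, the platelet 12-lipoxygenase, was detected after thinning in 84.1% of wt and 76.6% of db/db barcodes, against 0.258% and 0.522% of B cell and 0% and 0% of monocyte barcodes. Slc6a4, the transporter that loads platelets with serotonin, was detected in 44.4% of db/db barcodes and in 41 of 82 wt barcodes, against 0% and 0.104% of B cell barcodes. Thbs1, encoding the adhesive granule protein thrombospondin 1, was found in 85.4% of wt and 83.5% of db/db barcodes and in 1.28% and 1.20% of neutrophil barcodes. Among the rule's own genes, given as description, Pf4 was detected in 97.6% of wt and 98.5% of db/db barcodes, Ppbp in 89.0% of wt and 92.3% of db/db barcodes, Clec1b in 92.7% of wt and 92.7% of db/db barcodes and Nrgn in 97.6% of wt and 99.2% of db/db barcodes. Gp9 was the exception among them, with 69.5% of wt (interval 58.4 to 79.2) and 84.7% of db/db barcodes (79.7 to 88.8). The members held fewer distinct genes at equal depth than leukocytes, with medians of 266.5 genes in wt and 247 genes in db/db after thinning, against 329 and 330 in B cell, 366 and 366 in monocyte and 33 and 32 in haemoglobin barcodes.

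**Figure D3:**
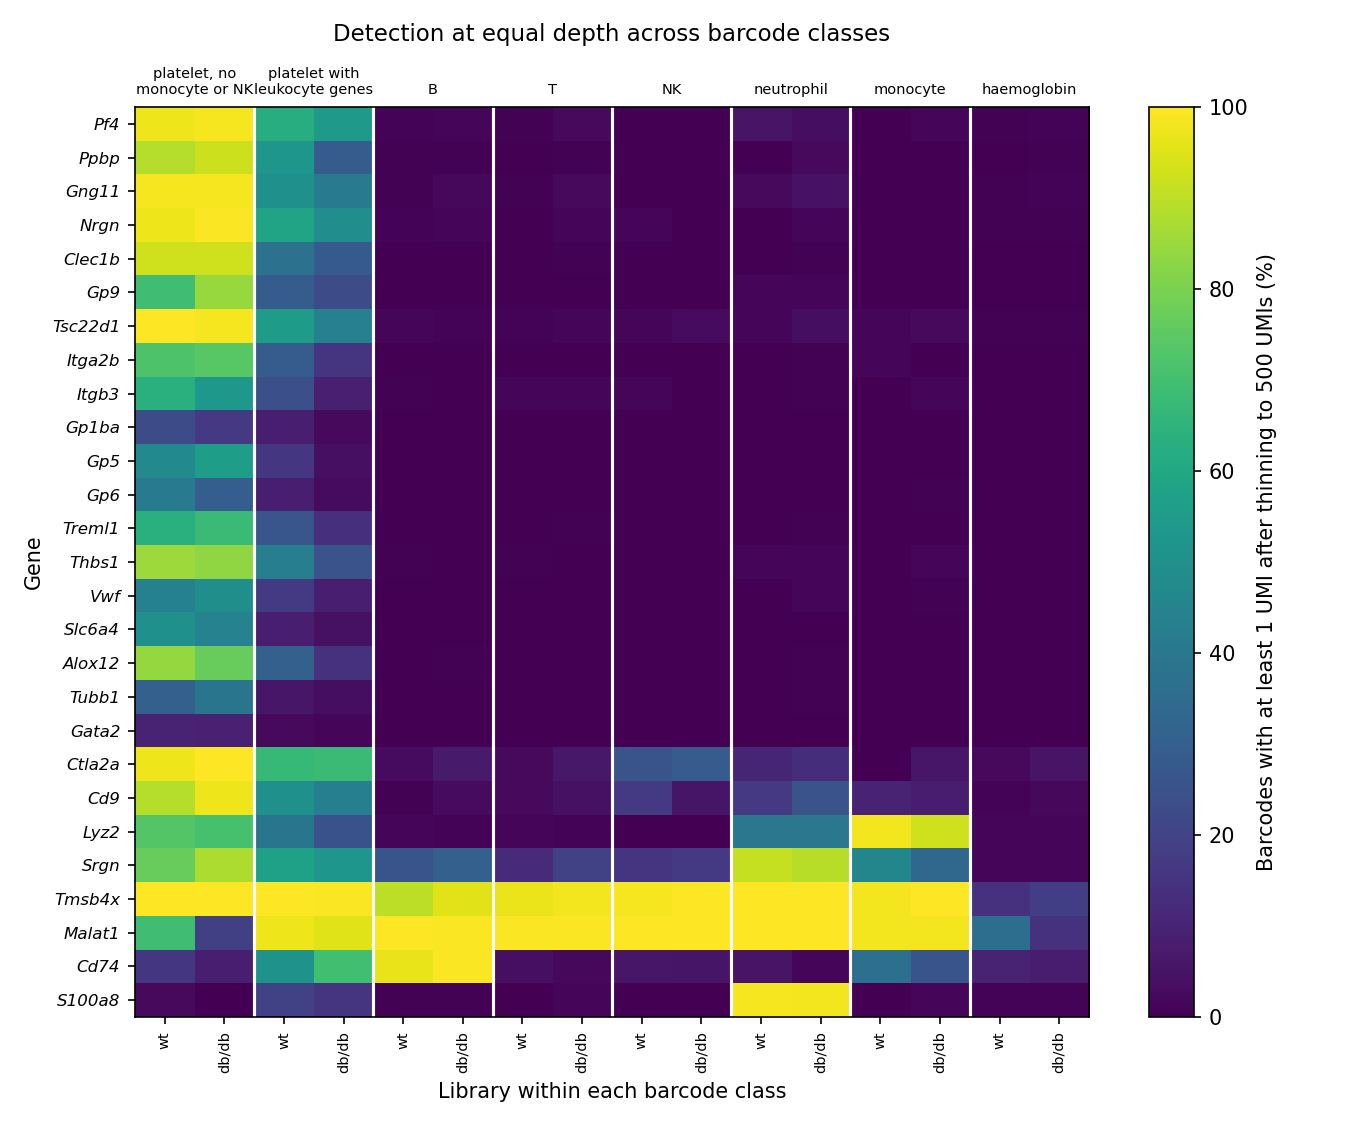
Percent of barcodes with at least 1 UMI of each gene (rows) after thinning to 500 UMIs, in the wt and db/db library of each barcode class (columns), with marker-free platelet barcodes on the left. Platelet genes are frequent in the platelet classes and near 0 in B, T, NK, neutrophil, monocyte and haemoglobin barcodes. For the 7 genes of the rule, selection set this contrast. Platelet classes needed at least 5 of them, and the other classes held at most 1. Tmsb4x and Malat1 are frequent in every leukocyte class.

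Gene by gene, UMIs were summed over the members of each library, and a gene was measured where both sums together held at least 20 UMIs. A gene was called where the log2 ratio of CPM plus 10, db/db over wt, was at least 1 in size and the interval of the CPM ratio excluded 1. Over all members 2460 genes were measured, of which 136 (5.53%) were called higher and 104 (4.23%) lower in db/db. In the marker-free members 1297 genes were measured, of which 33 (2.54%) were called higher and 67 (5.17%) lower. Of the 136 and 104 genes, 36 and 71 were still measured there, and 16 and 34 were called in the same direction. Apoe and Rps27a were called in opposite directions. Apoe was higher over all members, with 76 wt and 736 db/db UMIs, and lower in the marker-free ones, where 65 of its 70 wt UMIs lay in 1 barcode.

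Rescaling moved this balance. Scaling by trimmed means (TMM) over every gene with a UMI in both sums called 247 genes higher and 49 lower over all members, and 155 higher and 21 lower in the marker-free members. That is 83.4% of calls higher against 56.7%, and 88.1% against 33.0%. This scaling shifted log2 ratios by 0.23 and 0.47, and 62.9% and 69.0% of the genes it used had under 20 UMIs. TMM over measured genes, chosen after the data were seen, called 134 higher and 105 lower over all members and 38 higher and 65 lower in the marker-free ones. Among the genes named below, TMM over every gene ended the calls in the marker-free members of Btk, Lcp2, Syk, Ifit1 and Cd74, and it called higher Aldoa, Capzb, Cd9, Clu, Gapdh, Gp1bb, Gp9, Itgb1, Myl6, Pkm, Tpi1, Tpm4 and Ifitm2. Under the same scaling the marker-free intervals of Itgb3, Pecam1, Gnaq, Rasa3, Flna, Lims1, Cox5a, Rbpms2 and Otud7b held 1. On the unscaled CPM these intervals lay below 1. Thbs1, lower on the unscaled CPM, was higher in db/db under that scaling. Log2 values below are on the unscaled CPM, over which the median of all measured genes was 0.026 for all members and -0.040 for the marker-free members. Under TMM over every gene the latter was 0.41, and under the other scalings it lay from -0.092 to -0.0026.

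Alpha-granule cargo, the ligands that platelets release, differed little between the libraries on the unscaled CPM. Of 20 listed genes 13 were measured in the marker-free members, 7 higher and 6 lower, with 0 called and a median log2 ratio of 0.040. The list took 4.52% of wt and 4.52% of db/db UMIs, a ratio of 1.00 (interval 0.959 to 1.04). Pf4, which the rule used, stood at 16829 CPM in wt against 15501 in db/db, and Ppbp, also in the rule, at 9823 CPM in wt against 10102 in db/db. Thbs1 stood at 6052 CPM in wt against 5079 in db/db, a ratio of 0.839, interval 0.747 to 0.944. Its interval lay just under 1 on the unscaled CPM, and the difference was far short of 2-fold. Vwf, encoding von Willebrand factor, stood at 1267 CPM in wt against 1421 in db/db, with a ratio of 1.12, interval 0.876 to 1.45. F5, coagulation factor V, stood at 1118 CPM in wt against 1395 in db/db. Clu, encoding the chaperone clusterin, had the largest ratio of the list with an interval above 1, 1.60, interval 1.28 to 2.02, from 1416 CPM in wt against 2268 in db/db. Srgn, the proteoglycan serglycin that packs granule proteins, stood at 3771 CPM in wt against 5105 in db/db, a ratio of 1.35, interval 1.18 to 1.56. Sparc was listed but had 0 UMIs in both libraries, and Selp, encoding P-selectin, had 6 and 6 UMIs, under the minimum. Over all members the list's median was -0.047, with 1 of 14 measured genes called. Under TMM over every gene all 13 measured genes of the marker-free members were higher, with 2 called and a median of 0.51.

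Adhesion receptors were also called in no case on the unscaled CPM, while single genes leaned in both directions. Of 20 listed genes 18 were measured in the marker-free members, 10 higher and 8 lower, with a median of 0.068 and 0 called. Under TMM over every gene 17 were higher and 1 lower, with 4 called higher and a median of 0.53. Among the von Willebrand factor receptor subunits, Gp1ba stood at 507 CPM in wt against 393 in db/db, Gp1bb at 209 CPM in wt against 315 in db/db and Gp5 at 1327 CPM in wt against 1689.6 in db/db. Intervals of the ratio were 0.511 to 1.20 for Gp1ba, 0.835 to 2.92 for Gp1bb and 1.00 to 1.63 for Gp5. Gp9, which the rule used, stood at 3235 CPM in wt against 4754 in db/db, a ratio of 1.47, interval 1.27 to 1.71. Of the fibrinogen receptor pair, Itga2b stood at 2937 CPM in wt against 2811 in db/db and Itgb3 at 2325 CPM in wt against 1715 in db/db. On the unscaled CPM the Itgb3 ratio was 0.738, interval 0.608 to 0.898, below 1, whereas that of Itga2b was 0.957, interval 0.812 to 1.13. Under TMM over every gene the Itgb3 interval held 1.

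Itgb1, the beta subunit of the collagen receptor, stood at 1267 CPM in wt against 2222 in db/db, the largest ratio among these receptors at 1.75, interval 1.39 to 2.24. After thinning it was detected in 37.8% of wt and 61.7% of db/db barcodes. Cd9, a tetraspanin abundant on platelets, stood at 7364 CPM in wt against 10944 in db/db, a ratio of 1.49, interval 1.35 to 1.64. Gp6 and Fcer1g, the signalling collagen receptor and its gamma chain, stood at 835 and 729 CPM and at 1043 and 1333 CPM in wt and db/db, and both ratio intervals held 1. Jam3 was at 0 UMIs in both libraries, and Cd36, a scavenger receptor of platelets and monocytes, had 0 wt and 1 db/db UMIs in the marker-free members and 3 wt and 18 db/db UMIs over all members. Over all members the list's median was -0.23.

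Receptors for soluble agonists and inhibitory receptors gave no call in either set of members on the unscaled CPM. P2ry12, the ADP receptor that antiplatelet drugs block, stood at 596 CPM in wt against 506 in db/db, a ratio of 0.849, interval 0.582 to 1.26. P2rx1, the ATP-gated channel, stood at 402 CPM in wt against 444 in db/db, and F2rl2, a thrombin receptor, at 492 CPM in wt against 501 in db/db. All 3 intervals held 1, and 6 of 12 listed agonist receptors were measured, with 0 called and a median of 0.083. Tbxa2r, the thromboxane receptor, had 0 UMIs in both libraries, and F2rl3, the thrombin receptor PAR4, had 0 wt and 1 db/db UMIs. Of the inhibitory receptors, Pecam1 stood at 686 CPM in wt against 465 in db/db, a ratio of 0.678, interval 0.470 to 0.990. Treml1, which the same list holds, stood at 1983 CPM in wt against 2625 in db/db, a ratio of 1.32, interval 1.09 to 1.61. Of 6 measured genes on that list 3 were higher and 3 lower, with 0 called and a median of -0.0087. Over all members both lists lay lower on the unscaled CPM. The agonist receptors had a median of -0.24 with 5 of 6 measured genes lower and a ratio of summed levels of 0.781, interval 0.649 to 0.944. The inhibitory receptors had a median of -0.26 with 6 of 8 lower and a ratio of summed levels of 0.868, interval 0.767 to 0.985.

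Btk, Lcp2 and Syk, which act downstream of the collagen receptor, fell in the marker-free members, though under TMM over every gene none of the 3 was called, at -0.96, -0.65 and -0.61. Btk, a Tec family kinase, stood at 149 CPM in wt against 51.7 in db/db from 10 wt and 10 db/db UMIs, a log2 ratio of -1.37. Lcp2, the adaptor SLP-76, stood at 253 CPM in wt against 114 in db/db from 17 wt and 22 db/db UMIs, a log2 ratio of -1.09. Syk, the kinase that starts this cascade, stood at 268 CPM in wt against 124 in db/db from 18 wt and 24 db/db UMIs, a log2 ratio of -1.05. These were 3 called lower of 29 measured signalling genes, beside 5.17% of all genes, and the list's median was -0.023. The counts were small, with 6 of the 18 wt Syk UMIs in 1 barcode. Over all members Btk was called lower while Lcp2 and Syk were not, at -0.33 and -0.88. B cell markers also held a smaller part of the db/db sum (506 CPM) than of the wt sum (1163 CPM) in the marker-free members. What part B cell transcripts had in the values of Btk, Lcp2 and Syk was not tested. Of other genes of the same cascade, Lat was at 0.55, Tec at 0.21, Lyn at -0.058 and Fyn at -0.15, and each interval held 1. Over all members the list's median was -0.15. Of the genes that activate integrins from inside, Tln1 (talin) stood at 3056 CPM in wt against 3715 in db/db, Fermt3 (kindlin-3) at 3189.9 CPM in wt against 3209 in db/db and Rap1b at 4382 CPM in wt against 3767 in db/db. Rgs10, which damps G protein signals, stood at 3205 CPM in wt against 4614 in db/db, a ratio of 1.44, interval 1.24 to 1.68. Gnaq, the G protein subunit behind several agonist receptors, stood at 522 CPM in wt against 299.7 in db/db, a ratio of 0.574, interval 0.371 to 0.900, and Rasa3, a brake on Rap1, at 954 CPM in wt against 646 in db/db, a ratio of 0.677, interval 0.497 to 0.930.

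Eicosanoid synthesis genes lay lower in db/db on the unscaled CPM. All 5 measured of 10 listed genes were lower in the marker-free members, with a median log2 ratio of -0.60, beside 677 of 1297 measured genes lower and a median of -0.040 overall. Ptgs1, cyclooxygenase 1 and the target of aspirin, stood at 566 CPM in wt against 315 in db/db from 38 wt and 61 db/db UMIs, a ratio of 0.556, interval 0.365 to 0.858. Over all members it was called lower, at a log2 ratio of -1.03, and in the marker-free members it missed the 2-fold limit at -0.83. Tbxas1, thromboxane synthase, stood at 268 CPM in wt against 165 in db/db, a ratio of 0.616, interval 0.336 to 1.17. Pla2g4a, which frees arachidonic acid, stood at 209 CPM in wt against 134 in db/db, a ratio of 0.644, interval 0.324 to 1.33. Alox5ap and Alox12 lay nearer to 1, with log2 ratios of -0.14 and -0.072. Ptgs1 alone had an interval that excluded 1. The list's median was below 0 under each of the 5 scalings tried, from -0.65 to -0.16, but under TMM over every gene 3 genes were lower and 2 higher, Alox12 at 0.40 and Alox5ap at 0.32. Under that scaling Ptgs1 was at -0.37 with an interval that held 1, and no gene of the list was called over all members. The list of immediate early and stress genes also had all its measured genes lower, 2 of 15 listed. Over all members on the unscaled CPM 5 of 6 measured eicosanoid genes were lower, the exception being Alox5ap at 0.18.

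Cytoskeletal transcripts took a larger part of the db/db sums. The 36 listed genes took 14.3% of UMIs in the marker-free wt members and 19.2% in the db/db ones, a ratio of 1.34 (interval 1.31 to 1.37). Over all members the shares were 11.7% and 13.3%, a ratio of 1.14 (interval 1.12 to 1.17). Of 34 measured genes 22 were higher and 12 lower, with a median of 0.19 that stayed between 0.14 and 0.66 under the 5 scalings. Intervals lay above 1 for 11 of the 34, beside 7.86% of all measured genes, and below 1 for 3, beside 9.56%.

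Tmsb4x, thymosin beta 4, which binds monomeric actin, made up most of that difference, with 70149 CPM in wt against 100556 in db/db. Its ratio was 1.43, interval 1.39 to 1.48. Actb, beta-actin, stood at 20272 CPM in wt against 28026 in db/db, and Myl6, a myosin light chain, at 9152 CPM in wt against 14018 in db/db. Tpm4, a tropomyosin of platelets, stood at 3026 CPM in wt against 4687 in db/db, and Capzb, which caps actin filaments, at 432 CPM in wt against 734 in db/db. Each of these had an interval above 1 and none reached 2-fold. Tubb1, the platelet tubulin of the marginal band, stood at 819.8 CPM in wt against 1132 in db/db, a ratio of 1.38, interval 1.02 to 1.89. Tuba8, an alpha-tubulin on chr6:121210696-121226854, was the only listed gene called higher, from 1 wt and 26 db/db UMIs in 1 wt and 22 db/db barcodes. With 1 wt UMI its ratio was 9.01, interval 1.48 to 369. On the unscaled CPM the actin crosslinker Flna was lower, at 1774 CPM in wt against 1302 in db/db. So was Lims1, an integrin-linked adaptor, at 1207 CPM in wt against 806 in db/db.

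**Figure D4:**
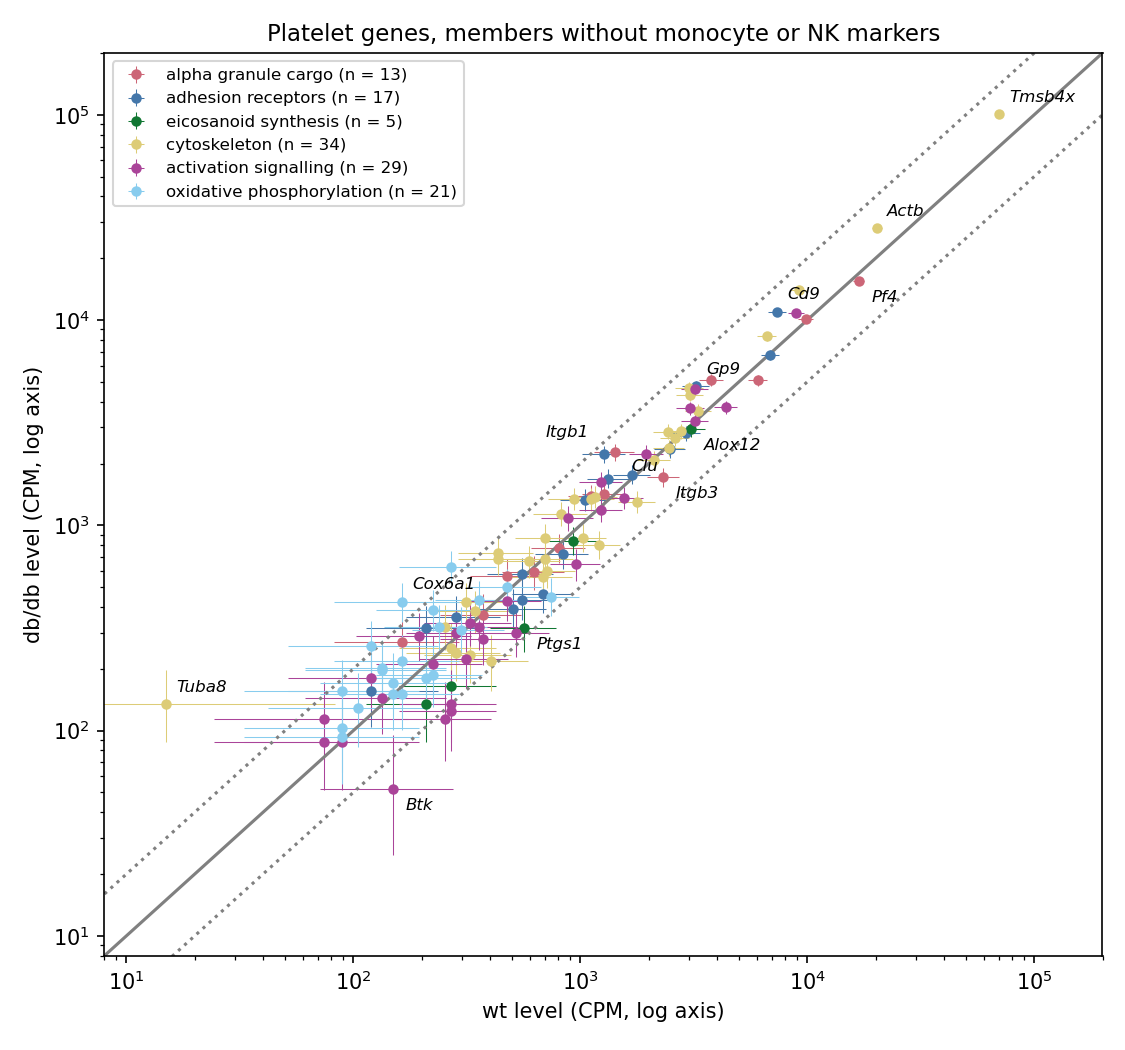
Level in wt (x axis) and db/db (y axis), both CPM on log axes, of each measured gene of 6 lists in the marker-free members, with 95% counting intervals, the line of equal levels (solid) and the 2-fold limits (dotted). A gene on more than 1 list is drawn once, and most points lie between the dotted lines, with Tmsb4x, Actb and Cd9 above the solid line and Itgb3 and Ptgs1 below it.

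Granule release, the procoagulant surface and the megakaryocyte factors gave few calls. Of the secretion machinery 8 of 22 genes were measured, 4 higher and 4 lower, with 0 called and a median of 0.00, against -0.25 over all members. Snap23, a membrane fusion protein of granule release, stood at 984 CPM in wt against 1002 in db/db, Slc6a4 at 1252 CPM in wt against 1183 in db/db and Rab27b, which steers dense granules, at 1312 CPM in wt against 1064 in db/db. The coagulation list had 6 of 12 genes measured, 0 called and a median of 0.18. F13a1, the clot-stabilising factor XIII subunit, stood at 805 CPM in wt against 775 in db/db. Among 9 of 13 measured megakaryocyte factors the median was -0.22, and Mef2c alone was called, lower, with 19 wt and 9 db/db UMIs. Over all members 2 of 10 were called lower. Mef2c is also a B cell gene, and the summed B cell markers lay lower in the same members, at 1163 and 506 CPM, and their part in the result was not tested. Gata1, the erythroid and megakaryocyte master factor, stood at 149 CPM in wt against 191 in db/db, and Nfe2, required for platelet release, at 849.7 CPM in wt against 729 in db/db, with both intervals holding 1. Survival genes had 4 of 11 measured, 0 called and a median of -0.27.

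Genes of energy metabolism leaned higher. Of 34 nuclear genes of oxidative phosphorylation 21 were measured in the marker-free members, 17 higher and 4 lower, with 3 called higher beside 2.54% of all genes. The median was 0.27, and 0.29 over all members. The 3 called genes were subunits of cytochrome c oxidase. Cox4i1 rose from 268 to 625 CPM (18 wt and 121 db/db UMIs), Cox6a1 from 164 to 424 CPM and Cox6b1 from 119 to 258 CPM. Over all members their log2 ratios were 0.99, 0.86 and 0.83, short of the limit of 1, and 2 other genes of the list were called higher. Another subunit of the same enzyme, Cox5a, lay lower in the marker-free members, at 745 CPM in wt against 449.5 in db/db and a ratio of 0.603, interval 0.421 to 0.872. Scaling without haemoglobin, mitochondrially encoded genes and Gm42418 ended the call of Cox6b1. Mitochondrially encoded genes showed a smaller lean, with 6 of 9 measured genes higher, 0 called and a median of 0.13, while over all members the median was -0.15. Ppif, the mitochondrial cyclophilin D, rose from 328 to 708 CPM, a log2 ratio of 1.09.

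Of 16 glycolysis genes 8 were measured, 5 higher and 3 lower, with 0 called and a median of 0.38. Tpi1, triosephosphate isomerase, passed the 2-fold limit at a log2 ratio of 1.01, but from 5 wt and 31 db/db UMIs its interval, 0.829 to 7.08, held 1. Pkm, pyruvate kinase, missed the limit, at 849.7 CPM in wt against 1633 in db/db and a ratio of 1.92, interval 1.45 to 2.59. After thinning it was detected in 35.4% of wt and 49.0% of db/db barcodes. Gapdh stood at 849.7 CPM in wt against 1245 in db/db and Aldoa at 581 CPM in wt against 889 in db/db, with intervals above 1. Among redox genes 12 of 20 were measured, 7 higher and 5 lower, with 0 called, and Gpx4, which reduces lipid peroxides, stood at 4204 CPM in wt against 5885 in db/db, a ratio of 1.40, interval 1.23 to 1.60. Over all members 2 of 16 measured redox genes were called higher and 1 lower. Gpx1 was 1 of the higher ones at 1.06, but in the marker-free members it stood at 268 CPM in wt against 382 in db/db with an interval of 0.843 to 2.54. Interferon genes were sparse, with 3 of 25 measured in the marker-free members. Ifit1, an antiviral RNA binder, was called lower with 22 wt and 29 db/db UMIs, of which 10 wt UMIs lay in 1 barcode. Under TMM over every gene it was not called, at -0.64 with an interval of 0.351 to 1.16, and Ifitm2, a membrane protein that restricts viral entry, was called higher, at 1.54. Over all members 14 interferon genes were measured, with 2 called higher and 2 lower. Class I antigen presentation had 4 of 13 measured, 0 called and a median of -0.098, against 0.016 over all members, and B2m, its common light chain, stood at 2713 CPM in wt against 3002 in db/db. Haemoglobin and other erythroid transcripts of the 14-gene list took 4.77% of UMIs in wt and 5.82% in db/db. Their part in the results was not tested.

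Ribosomal protein genes separated the barcodes with monocyte or NK markers from the rest. Over all members 82 of 82 measured genes were higher in db/db, 14 of them called, with a median log2 ratio of 0.69. In the marker-free members 28 of 62 measured genes were higher and 34 lower, with a median of -0.12 that lay between -0.17 and -0.078 under the scalings other than TMM over every gene, where it was 0.32. The list took 1.47% of UMIs in the marker-free wt members and 1.34% in the db/db ones, against 4.88% and 8.07% over all members. The higher ribosomal level over all members was thus not seen once the barcodes with monocyte or NK markers were left out.

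**Figure D5:**
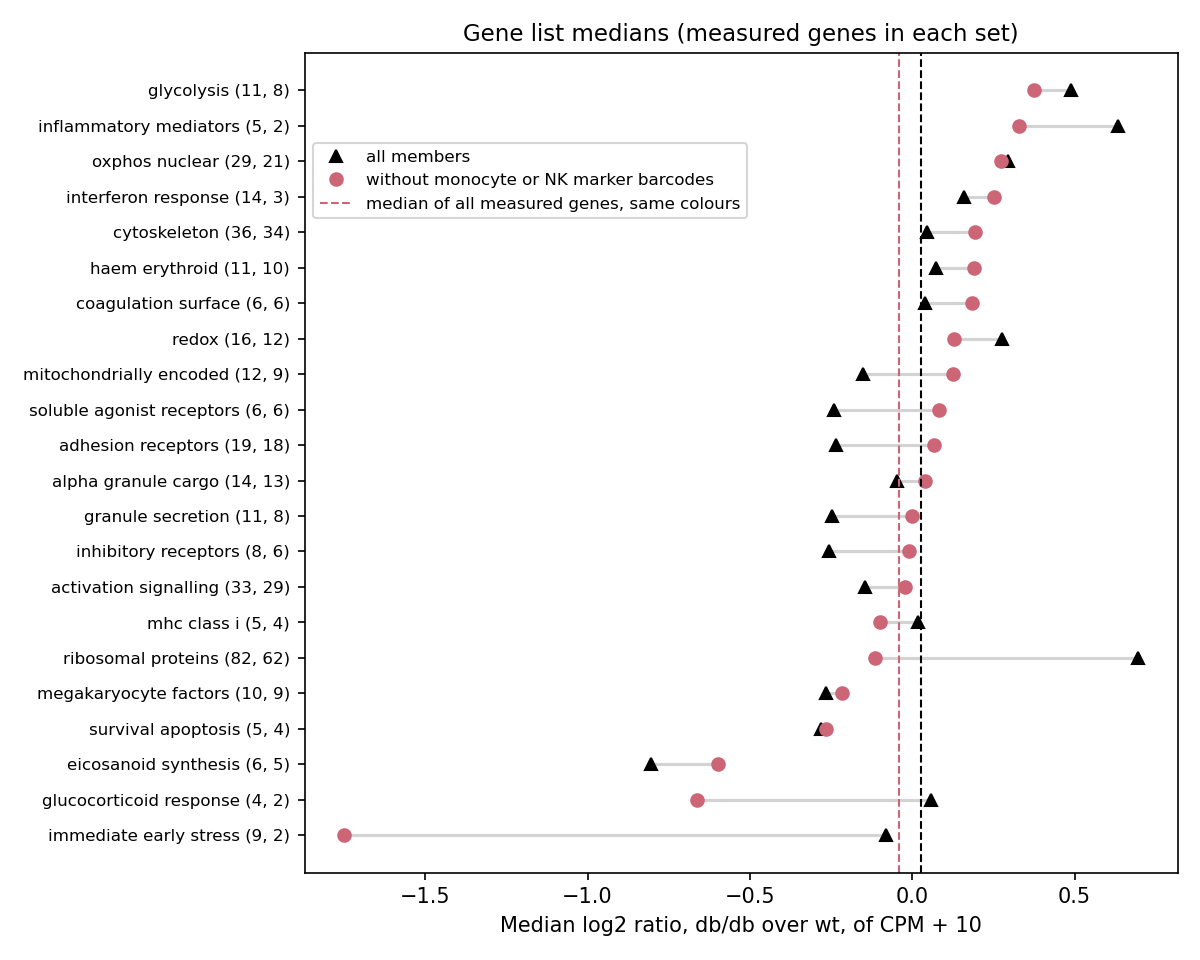
Median log2 ratio of CPM plus 10, db/db over wt, of each gene list over all members (triangles) and over the marker-free members (circles), with the number of measured genes in each set in brackets and dashed lines at the medians of all measured genes. Ribosomal proteins move from 0.69 to -0.12 between the sets, while eicosanoid synthesis lies lowest among lists with at least 4 measured genes in both.

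The genes with the highest ratios that a size rule named over all members held few UMIs in the marker-free members. The rule took named genes with at least 50 UMIs in the higher library and an interval excluding 1. It also asked for at least 10% of their highest CPM in another class and left out mitochondrially encoded, ribosomal protein and haemoglobin genes. The 10 with the highest log2 ratios were Irf8, Shisa5, Ly6c2, Smpdl3a, Klf2, Id2, Rbm3, Pla2g7, Chil3 and Hp, from 3.47 to 1.94. Irf8, a factor of the monocyte and dendritic lineage, had 1 wt and 70 db/db UMIs over all members and 0 wt and 2 db/db UMIs in the marker-free ones. Ly6c2, which marks classical monocytes, had 5 wt and 106 db/db UMIs over all members and 0 in the marker-free members of both libraries. Chil3 and Hp, secreted proteins of monocytes and neutrophils, had 1 wt and 2 db/db UMIs and 1 wt and 0 db/db UMIs once the marked barcodes were left out. Of the others, Klf2 had 8 wt and 4 db/db, Rbm3 3 wt and 14 db/db and Shisa5 2 wt and 11 db/db UMIs there, while Smpdl3a, Id2 and Pla2g7 had 0 wt and at most 3 db/db UMIs. None of the 10 reached 20 UMIs in the marker-free members, so none was measured. The barcodes left out had a monocyte marker sum of 22392 CPM in db/db, a level shaped by their choice through such markers. Ly6c2 is 1 of the 9 monocyte markers, so its fall to 0 was shaped by that choice too.

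Among the lower genes some were called in both sets. The 10 lowest by the same rule were Atox1, H2-Eb1, H2-Ab1, H2-Aa, Cd74, Rbpms2, Cnst, Pgm2l1, Otud7b and Lpin2, from -1.80 to -1.04. Atox1, the copper chaperone on chr11:55446641-55461239, fell from 611 to 119 CPM in the marker-free members, with 41 wt and 23 db/db UMIs in 33 wt and 23 db/db barcodes. No barcode held more than 3 of them, and the ratio was 0.194, interval 0.111 to 0.332. The class II antigen presentation genes H2-Ab1, H2-Aa and Cd74 were called lower in both sets on the unscaled CPM, with Cd74 at -0.79 and not called under TMM over every gene. They had 14 wt and 7 db/db UMIs, 18 wt and 14 db/db UMIs and 27 wt and 32 db/db UMIs in the marker-free members. Of the wt UMIs there, 9 for H2-Ab1, 6 for H2-Aa and 14 for Cd74 lay in 1 barcode, and the summed B cell markers, a list that holds Cd74 and H2-Aa, lay at 1163 and 506 CPM. Rbpms2, an RNA-binding protein, stood at 716 CPM in wt against 367 in db/db, and Otud7b, a deubiquitinase, at 1923 CPM in wt against 1235 in db/db. Both intervals, 0.350 to 0.756 and 0.516 to 0.802, lay under 1 on the unscaled CPM, and neither gene reached 2-fold.

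In the marker-free members the size rule named Laptm5, Hist1h4i, Cox6a1, Cdkn2d, Ptms, Cox4i1, Gipc1, Cnp, Bsg and Ppif as the highest. Laptm5, a lysosomal membrane protein of blood cells on chr4:130913125-130936141, had 1 wt and 59 db/db UMIs in 1 wt and 44 db/db barcodes, a ratio of 20.5, interval 3.53 to 821. Over all members it had 25 wt and 167 db/db UMIs and was not called. Hist1h4i, a histone H4 gene, stood at 179 CPM in wt against 512 in db/db, and Cdkn2d, which encodes a cyclin-dependent kinase inhibitor, at 149 CPM in wt against 372 in db/db. Bsg, the membrane protein basigin, stood at 149 CPM in wt against 336 in db/db. Other than Laptm5, these genes lay between log2 ratios of 1.09 and 1.47. Of the 10 lowest, Apoe and Malat1 alone passed 2-fold, and the next was Zfand5 at -0.85.

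Malat1, a nuclear long non-coding RNA on chr19:5795690-5802672, was the clearest lower transcript. The marker-free members held 549 wt and 263 db/db UMIs of it, 8184 CPM in wt against 1359 in db/db, a ratio of 0.166, interval 0.143 to 0.193. In wt 181 of these UMIs lay in 1 barcode, and in db/db 47 did. After thinning, Malat1 was detected in 69.5% of wt and 18.8% of db/db barcodes, with intervals of 58.4 to 79.2 and 14.2 to 24.1, a measure in which each barcode counts equally. In barcodes dominated by haemoglobin, which are also anucleate, detection was 36.3% and 14.3% and the level 2012 and 1005 CPM. In B cell barcodes detection was 99.7% and 99.4% and the level 35179 and 23142 CPM. The lower level in db/db was thus seen in each of these classes. Gm42418, an unnamed transcript that overlaps a ribosomal RNA repeat, also lay lower in db/db in the platelets and in these other classes. It took a median of 5.94% of a member's UMIs in wt and 0.966% in db/db, against 2.82% and 0.442% in B cell and 1.99% and 0.560% in haemoglobin barcodes. The part of either transcript in the other results was not tested, beyond the scaling without haemoglobin, mitochondrially encoded genes and Gm42418, which called 30 genes higher and 81 lower.

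Within each library some groups of transcripts changed with depth among the marker-free members and others did not. Marker-free members were split in 3 equal parts by UMIs. From the bottom to the top part, cytoskeletal genes took 13.9, 15.6 and 13.7% of wt UMIs and 19.8, 18.7 and 19.2% of db/db UMIs. The db/db share was above the wt share in each part. Alpha-granule genes took 4.84, 4.42 and 4.43% in wt and 4.53, 4.22 and 4.70% in db/db, with no common direction. Erythroid transcripts took 5.74, 5.33 and 4.02% in wt and 7.23, 7.11 and 4.29% in db/db, lowest in the deepest part of each library. Gm42418 went from 83039.7 through 68090.4 to 43694 CPM in wt and from 15334 through 14043 to 13378 CPM in db/db. Malat1 was at 4677, 3625 and 12180 CPM in the wt parts against 514, 2052 and 1362 CPM in the db/db parts. Ctla2a, a cysteine protease inhibitor, was at 22169.5, 19034 and 14279 CPM in the wt parts against 27520.2, 23505 and 23466 CPM in the db/db parts. In each part both Gm42418 and Malat1 lay lower in db/db, and Ctla2a lay higher. All barcodes with monocyte or NK markers lay in the top part of all members, where ribosomal proteins took 6.93% of UMIs in wt and 12.04% in db/db, against 1.55% and 1.15% in the bottom part.

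Transcripts of kidney proximal tubule were present in db/db members and nearly absent in wt members. Of the 7 listed tubule markers, 6 were detected in the marker-free db/db members with 55 UMIs in all, and 1 in wt, Aqp1, with 6 UMIs. At least 3 of the 7 were present in 2 db/db barcodes and 0 wt barcodes. Fxyd2, a regulator of the sodium pump, had 0 wt and 21 db/db UMIs, at least 2.43-fold higher when the wt count of 0 is read as 3 UMIs, while the exact interval of the ratio starts at 1.81. Gpx3, a secreted glutathione peroxidase made mainly in kidney, had 0 wt and 41 db/db UMIs, at least 4.74-fold higher on the same reading, with an interval that starts at 3.68. It was named after its values were seen. It was higher in other db/db barcodes as well, at 0.186 and 28.7 CPM in wt and db/db B cells and at 0.493 and 18.5 CPM in haemoglobin barcodes. Lepr, the gene mutated in db/db mice, had 0 UMIs in the members of both libraries, so it checks nothing about the labels here.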

How the data were processed

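UMI counts per gene and barcode were measured in 2 libraries, and the authors deposited them as raw counts made with Cell Ranger 3.0.2 on mm10, per the submitters' processing notes. The sources used here do not give the annotation or the cell-calling settings. Calculations ran on numpy 2.4.6, pandas 2.3.3 and scipy 1.17.1 under Python 3.11.15, and figures were drawn with matplotlib 3.10.9. No doublet caller was run. UMIs were summed per library over the members and given as CPM with exact Poisson intervals, ratios with exact conditional binomial intervals and shares with Clopper-Pearson intervals. Log2 ratios used CPM plus 10, and 0 UMIs were taken to allow up to 3. PCR copies are collapsed by the UMIs, and reads from near-identical ribosomal protein or histone gene copies may be split between them. Cells are not replicates and each group has 1 library, so no p-value is given. The step that calls single genes was tested on simulated counts, and the list step was not. Those counts were independent Poisson draws per gene at the totals of all members. UMIs gathered in single barcodes were therefore not simulated, and neither were the marker-free totals.

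Other classes were ranges of marker counts with at most 1 platelet gene: B, T, NK, neutrophil, monocyte, and barcodes with over 50% haemoglobin. Named genes were the 20 with the highest CPM, and the 10 highest and 10 lowest log2 ratios among named genes with at least 50 UMIs in the higher library, an interval excluding 1 and at least 10% of their highest CPM in another class. Members of the gene lists were named too. The members and lists were chosen with earlier results of these data known. Gene positions are from GENCODE M21 on GRCm38. No protein sequences were used here.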

Additional observations from a re-analysis of the deposited data

How the results depend on the processing

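No paired analysis was possible because each group has 1 library. The share ratio of 3.09 kept its direction and an interval above 1 under all 18 alternatives, and moved by more than its own interval at a mitochondrial limit of 5% (2.08) and with a wider leukocyte list at 0 (5.69, from 7 wt and 43 db/db members). That list also asks for 0 Lyz2, which most platelets carried. The 136 genes called higher and 104 called lower over all members became 54 called higher with at least 6 platelet genes and 40 with all 7. They became 6 and 11 with the wider leukocyte list, 33 and 67 without barcodes with monocyte or NK markers, 38 and 37 after thinning to 500 UMIs, and 247 and 49 under TMM over every gene. A pseudocount of 50 CPM gave 86 and 37, and a minimum of 50 UMIs gave 78 and 35. Without the deepest 5% of members 61 genes were called lower, and with no minimum of UMIs 209 were. Of 22 lists, 10 had a median above that of all genes, 6 with a minimum of 50 UMIs and 4 with no minimum.

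Signs changed as follows, on the log2 scale. Without barcodes with monocyte or NK markers the ribosomal list was at -0.12, the mitochondrially encoded list at 0.13, Klf2 at -2.08, Chil3 at -0.29, Hp at -1.32, Ppbp at 0.040, Lyz2 at -0.051 and Fth1 at 0.14. With at least 6 platelet genes the ribosomal list was at -0.23, Id2 at -0.48, Ppbp at 0.13, Lyz2 at -0.058, Fth1 at 0.089 and Clec1b at 0.052. With all 7 the ribosomal list was at -0.58, Ly6c2 at -0.57, Id2 at -0.70, Pf4 at 0.092, Ppbp at 0.16, Lyz2 at -0.30, Fth1 at 0.12, Lsm12 at 0.12 and Clec1b at 0.14. With no leukocyte limit Shisa5 was at -0.10, Ly6c2 at -0.60, H2-Aa at 0.31, Cd74 at 0.15, Actb at -0.064 and Nrgn at -0.028. With the wider leukocyte list the mitochondrially encoded list was at 0.076, H2-Eb1 at 2.19, H2-Ab1 at 3.02, Rbpms2 at 0.20, Pgm2l1 at 0.099, Lpin2 at 1.501, Nrgn at -0.11, Ppbp at 0.29 and Clec1b at 0.39. Without the deepest 5% the mitochondrially encoded list was at 0.040, Chil3 at -0.45 and Fth1 at 0.012. Under TMM over every gene that list was at 0.079 and Fth1 at 0.079, after thinning 0.26 and 0.12, at the mitochondrial limit of 5% the list was at 0.063, and with equal weight per barcode Fth1 was at 0.066. Fewer or other barcodes and fewer genes tested enter by construction, and beyond that the cause was not tested. Of the other values of named genes and list medians, 751 and 414 stayed within their spread and 227 and 122 moved without a change of sign.

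Depth limits the members more than leukocytes. At a sum of 67086 UMIs in the wt members without monocyte or NK markers, a gene at 0 can reach 44.7 CPM, and the 20-UMI minimum leaves 1297 of 31053 genes measured. Genes with few wt UMIs, such as Laptm5 and Tuba8, have intervals that span more than a 100-fold range. A difference of genotype cannot be told apart from one between 2 captures.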

Other observations

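Some transcripts that the marker lists used here place with other blood cells were spread over the platelet barcodes in both libraries. Lyz2, encoding the lysozyme of monocytes and neutrophils, was detected after thinning in 73.2% of wt and 70.9% of db/db platelet barcodes free of monocyte and NK markers, against 1.29% and 1.04% of B cell and 1.45% and 1.53% of haemoglobin barcodes. It stood at 3115 CPM in wt against 3007 in db/db in those platelets, spread over 70 wt and 208 db/db barcodes with at most 9 UMIs in a wt and 13 in a db/db barcode. Monocyte barcodes had it in 98.4% and 92.9%. Of the 9 monocyte markers, which include Lyz2, 5 were detected in these wt and 4 in these db/db platelets. Ly6c2, Adgre4 and Fn1 were at 0 in both libraries, in a set from which barcodes with at least 3 of the 9 had been left out.

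Gata2 was detected after thinning in 9.76% of wt and 9.20% of db/db barcodes of the same set, and in 0% and 0% of haemoglobin barcodes. It is listed here with basophil and mast cell markers, but belongs to the GATA family, whose factors are known regulators of megakaryocyte genes. Of the 6 basophil and mast cell markers only Gata2 was detected in the wt platelets, and Mcpt8, Fcer1a and Ms4a2 were at 0 in both libraries. Clec4d, a lectin receptor of neutrophils, was detected in 8.54% of wt and 10.3% of db/db barcodes, against 29.5% and 34.1% of neutrophil and 0% and 0% of B cell barcodes. Clec4d held 12 of the 19 wt and 44 of the 63 db/db UMIs of the 9 neutrophil markers in these platelets. Of the other markers, S100a8 had 2 wt and 4 db/db UMIs and S100a9 had 4 wt and 8 db/db UMIs, and Csf3r, Wfdc21 and Il1r2 were at 0, the first of them by the rule. These genes were singled out after their values were seen, and no difference between the libraries in any of them reached 2-fold.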
